A study of Caenorhabditis elegans with 2 samples.

Results

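Nuclear hormone receptors are transcription factors that join a zinc-finger DNA-binding domain to a ligand-binding domain, so that a small lipid or metabolite can alter which genes they regulate. Caenorhabditis elegans carries an unusually large family of them, most of it derived from an ancestor of the HNF4 type, and many members act in the intestine, epidermis or nervous system in the control of metabolism, detoxification and moulting. The genes examined here were all nuclear protein-coding genes whose name is nhr- followed by a number, which gave 269 genes among 19973. Membership was set by the gene's name. Receptor genes with other names, such as daf-12, were outside this definition and are given as a separate list.

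The data were chromatin immunoprecipitation sequencing (ChIP-seq) peaks of LIN-1, an ETS-domain transcription factor that acts downstream of Ras and ERK signalling in the vulva and other tissues. All animals carried the allele st12212, a CRISPR insertion of TY1, EGFP and 3xFLAG tags in lin-1 on chromosome IV (strain RW12212). They were hatched into starvation after bleaching and collected whole as L4 larvae at 48 hours, as 1 group of 2 biological replicates. No treated or mutant group was present, so every comparison below is between genes or between replicates. Signal is averaged over all tissues of the larva, and sex was not recorded. The labels describe a pull-down with an anti-GFP antibody but list lin-1 in the antibody field, and this difference was not resolved. The control experiment named in the labels was not used here.

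Peaks came from the conservative list, which holds 2267 peaks that ranked alike in both replicates at an irreproducible discovery rate (IDR) of 0.01 or less. Of these, 2243 lay on the nuclear chromosomes. The replicates' own thresholded lists were shorter, with 1079 and 1348 peaks, and no read depth is known. A gene was counted as having a promoter summit when the highest point of a peak lay from 1000 bp upstream to 200 bp downstream of its start. It was counted as having a gene body summit when that point lay within its annotated span. Signal is the authors' value for a peak, on a scale that is not stated, and each conservative peak has 1 value without an SD. Replicate signals below are those of the highest overlapping peak in each replicate's own ranked list.

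Promoter summits were found at 22 of the 269 receptor genes, or 8.18% (exact 95% interval 5.20 to 12.1%), against 5.25% of all nuclear protein-coding genes. A further 11 genes had a summit only in the gene body, so that 33 genes, or 12.3%, had either, against 7.97% of all genes. The remaining 236 had none. Intervals cover counting error over genes, which are not independent replicates. The lower bound of the promoter interval lay just below the share for all genes, and no test of the difference was run. Among other families of transcription factors, 2 of 63 homeobox genes named ceh- and 1 of 25 bHLH genes named hlh- had a promoter summit (3.17% with an interval of 0.387 to 11%, and 4% with 0.101 to 20.4%). These intervals overlap that of the receptor genes.

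The sequences under the best supported promoter summits are shown first, since they are the sites at which the values below were measured. Each runs 5′ to 3′ on the strand of its receptor gene, extends up to 50 bp to either side of the summit and was trimmed where an annotated exon begins (WBcel235, the ce11 assembly). Capitals mark GCGTCTC and TGATAA, the latter the core bound by GATA factors of the intestine, on either strand. Of the 8 receptor genes with a promoter peak in both replicates' own lists, 7 are shown. The nhr-8 summit lies in an exon and is left out.
nhr-68 (chrV:11572991-11573066, plus strand): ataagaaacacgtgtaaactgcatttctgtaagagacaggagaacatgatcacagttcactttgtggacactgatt
nhr-58 (chrV:532147-532247, plus strand): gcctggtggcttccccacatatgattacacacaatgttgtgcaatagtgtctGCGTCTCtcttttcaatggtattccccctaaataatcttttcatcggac
nhr-291 (chrV:15318790-15318890, plus strand): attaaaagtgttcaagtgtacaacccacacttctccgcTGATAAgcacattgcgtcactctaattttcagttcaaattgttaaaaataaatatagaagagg
nhr-256 (chrV:1743578-1743678, plus strand): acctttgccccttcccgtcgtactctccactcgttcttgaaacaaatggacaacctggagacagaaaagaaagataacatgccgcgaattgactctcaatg
nhr-119 (chrII:2800968-2801068, minus strand): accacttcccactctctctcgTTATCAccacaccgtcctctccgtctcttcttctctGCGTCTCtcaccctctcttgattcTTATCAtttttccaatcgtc
nhr-178 (chrV:1607956-1608056, minus strand): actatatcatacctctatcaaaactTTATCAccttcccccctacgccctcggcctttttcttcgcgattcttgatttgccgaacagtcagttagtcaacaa
nhr-57 (chrV:4131667-4131767, plus strand): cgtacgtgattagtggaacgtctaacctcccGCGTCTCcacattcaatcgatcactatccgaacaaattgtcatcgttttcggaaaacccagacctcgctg

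A pair of summits that did not reach both own lists, at nhr-1 and nhr-84, are shown because they hold the same GCGTCTC word.
nhr-1 (chrX:17513700-17513800, plus strand): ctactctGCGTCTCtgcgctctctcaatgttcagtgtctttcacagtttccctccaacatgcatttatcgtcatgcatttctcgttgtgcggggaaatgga
nhr-84 (chrV:15880195-15880295, minus strand): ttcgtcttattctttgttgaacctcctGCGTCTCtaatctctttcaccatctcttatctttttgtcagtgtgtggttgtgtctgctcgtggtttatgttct

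ETS-domain proteins bind DNA around a GGAA core, and CCGGAA was searched as a longer form of it, on both strands and within 50 bp of the summit. None of the 22 promoter summits of receptor genes and 1 of 16 gene body summits, at nhr-46, held it. Across all genes it was present at 2.45% of 856 nuclear promoter summits and in 3.69% of windows of equal length tiled over all promoters. The word was thus rare in windows of this length, with a lower share at promoter summits than in tiled windows. A count of 0 says only that these letters are not within 50 bp of the summits, and 95 of the 269 receptor genes (35.3%) held the word somewhere in the promoter window, against 33.4% of all genes. The GGAA core alone was found at 13 of the 22 summits, or 59.1%, against 55.3% of all nuclear promoter summits and 63.7% of tiled promoter windows. Within 25 bp it was at 4 of the 22 (18.2%), against 31.0% of all nuclear promoter summits. Within 100 bp it was at 20 of the 22 (90.9%), against 82.5%, so the order depended on the width. All counts of words leave out peaks that repeat the replicate signals of a stronger neighbour.

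GCGTCTC was found at 5 of the 22 promoter summits (22.7%), those of nhr-1, nhr-57, nhr-58, nhr-84 and nhr-119, and at none of the 16 body summits. It was chosen after the windows had been read, so its count is a description. The word was present at 8.76% of all nuclear promoter summits and in 1.01% of tiled promoter windows. TGATAA, added after earlier values were seen, was found at 5 of the 22 promoter summits (22.7%), against 180 of all 856 nuclear promoter summits and 10.4% of tiled windows. At nhr-119 both words occurred, and at nhr-291, nhr-178, nhr-105 and nhr-88 only TGATAA did. Among the body summits 4 of 16 held TGATAA. The windows of nhr-68 and nhr-256 held neither.

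Receptors of vitamin B12 and propionate metabolism included the highest peak of the family. NHR-68 acts with NHR-10 to switch on the propionate shunt, a pathway that breaks down propionate when vitamin B12 is scarce. At nhr-68 (chromosome V, 11573440 to 11575709) the signal was 174 in the conservative list, from 70.9 in replicate 1 and 97.6 in replicate 2, and the peak ranked 71 among all nuclear peaks. The peak was 74 bp wide, whereas the other 21 receptor promoter peaks were 296 bp wide. Its summit lay 424 bp upstream of nhr-68 and 26 bp from the start of the neighbouring gene H12C20.7, so it counted for both genes and was given to H12C20.7 when only the nearest start was allowed.

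At nhr-114, whose product supports the methionine and S-adenosylmethionine cycle and fertility on some diets, the peak lay 577 bp upstream. Its signal was 63.9, from replicate values of 26.3 and 40.6, and only replicate 2's own list held it. The summit lay in an intron of the protein-coding gene Y45G5AM.9. The third gene of this group, nhr-10, had its nearest summit 1340 bp upstream, outside the window, with a signal of 60.7 and in neither own list. Thus 2 of these 3 genes had a promoter summit, where 5.25% of all genes did, and 1 of the 2 was supported by both own lists.

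Among receptors of xenobiotic, immune and stress responses, nhr-8 and nhr-57 had promoter peaks in both own lists. NHR-8 acts in drug resistance and cholesterol balance. At nhr-8 (chromosome IV, 7710983 to 7714210) the summit fell in the 5′ UTR, 38 bp past the start, and its signal was 87.9, from 45.2 in replicate 1 and 41.9 in replicate 2. The gene nhr-57, known to be induced under hypoxia, had a signal of 73.1 at 172 bp upstream, with 36.2 and 32.7. In both of these genes replicate 1 was the higher one. The other 4 genes of this group, nhr-14, nhr-48, nhr-86 and nhr-176, had no promoter or gene body summit, and their nearest summits lay 2543 bp (nhr-14) to 59952 bp (nhr-86) from the gene start.

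Receptors of lipid and energy metabolism had 1 promoter summit among 7 genes, at nhr-49, against 5.25% of all nuclear protein-coding genes. NHR-49 governs fatty acid desaturation, beta-oxidation and the response to fasting. Its peak (chromosome I, 9869106 to 9869401) lay 397 bp upstream with a signal of 81.9. Replicate 1 gave 27.4 and replicate 2 gave 49.6, and the peak was in replicate 2's own list only. Of the partners of NHR-49, nhr-66 had a gene body summit with a signal of 63.2, and nhr-80 and nhr-13 had their nearest summits 2.80 kb and 52.5 kb from the start. For nhr-76, nhr-64 and nhr-62 the distance was 7.03 kb, 13.1 kb and 29.7 kb, and the summit nearest to nhr-62 was the nhr-49 promoter peak.

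Receptors of moulting and development had no promoter summit in any of 10 genes. The nearest summits to nhr-23 and nhr-25, both needed for moulting, lay 57.8 kb and 30.5 kb from their starts. Those of nhr-67, which acts in the anchor cell, and nhr-85, a receptor of developmental timing, lay 9.66 kb and 66.3 kb away. For nhr-60, nhr-91, nhr-40, nhr-2 and nhr-6 the distances were 5.66 kb, 10.6 kb, 19.3 kb, 45.002 kb and 53.1 kb. In the conservative list the only summit in this group was in the body of nhr-41, with a signal of 59.3, and it lay inside a tRNA gene. It counted as a promoter summit when any annotated transcript start was allowed. The authors' other thresholded list of the series also held a body summit at nhr-40 and nhr-85. Replicate 2's own list held one at nhr-85. With 5.25% of all genes called, a count of 0 in 10 genes is near the background. Over these 4 groups together, 5 of 26 genes had a promoter summit and 7 had either kind. Of all nuclear protein-coding genes, 5.25% and 7.97% did. The lists were written with earlier results of these data known, so these counts are a description and were not tested.

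The 4 groups hold 26 of the 269 receptor genes and 3 of the 8 doubly supported promoter peaks, and the other 5 such peaks were at genes outside them. At nhr-58 (chromosome V, 532259 to 534070) the summit lay 62 bp upstream with a signal of 130.4, and the replicates gave 65.3 and 66.9. For nhr-291 the signal was 113 at 121 bp upstream, with 57.7 and 58.5. At nhr-256 it was 107 at 143 bp upstream, with 53.7 and 54.9. At these 3 genes the replicates gave nearly equal values.

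The remaining peaks of these 5 were lower. At nhr-119 the signal was 94.9 at 418 bp upstream, with 46.0 in replicate 1 and 46.8 in replicate 2. At nhr-178 it was 86.1 at 53 bp upstream, with 37.3 and 46.4. All 8 doubly supported peaks lay within 424 bp of the gene start.

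**Figure D1:**
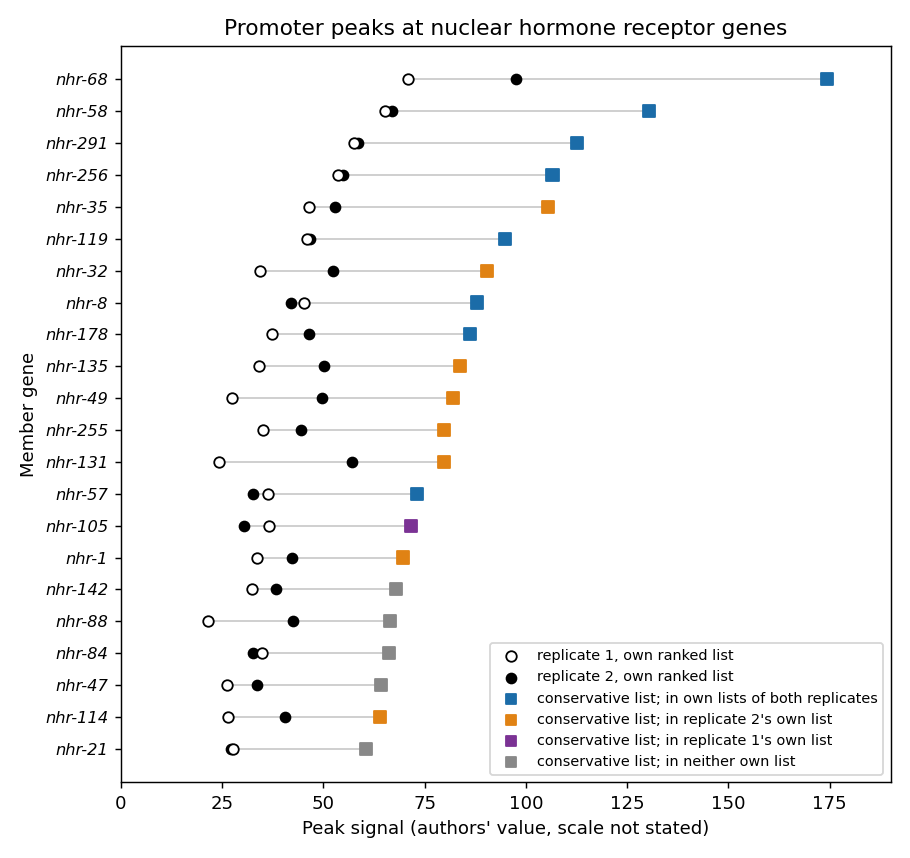
Peak signal (authors' value) at the 22 receptor genes with a promoter summit, in the conservative list (squares, coloured by support in the replicates' own thresholded lists) and in the ranked lists of replicate 1 (open circles) and replicate 2 (filled circles); grey lines join the values of a gene. The conservative signal ran from 60.6 at nhr-21 to 174 at nhr-68, and the peaks in neither own list were all at or below 67.9.

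Peaks supported by replicate 2 alone formed the other large group. They were at nhr-35 (signal 105, 385 bp upstream), nhr-32 (90.4, 260 bp upstream), nhr-135 (83.8, 229 bp upstream), nhr-49, nhr-255 (79.8, 580 bp upstream), nhr-131 (79.7, 120 bp downstream), nhr-1 (69.7, 313 bp upstream) and nhr-114. Replicate 2 was the higher one at all 8. Values in replicates 1 and 2 were 46.4 and 53.0 at nhr-35, 34.4 and 52.3 at nhr-32, and 34.01 and 50.1 at nhr-135. At nhr-255 they were 35.2 and 44.5, and at nhr-1 33.7 and 42.2. Of the 8, nhr-131 had the widest gap between replicates, with 24.1 in replicate 1 and 57.1 in replicate 2. The nhr-35 promoter held a second summit 184 bp upstream with a signal of 5.41, which repeated the replicate signals of its neighbour. The nhr-255 summit lay 20 bp from a tRNA gene.

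A single promoter peak, at nhr-105, was in replicate 1's own list only, with a signal of 71.6 at 316 bp upstream and replicate values of 36.5 and 30.3. The remaining 5 were in neither own list. They were nhr-142 (67.9, 529 bp upstream), nhr-88 (66.3, 854 bp upstream), nhr-84 (66.2, 637 bp upstream), nhr-47 (64.3, 17 bp upstream) and nhr-21 (60.6, 28 bp downstream). Their values ran from 21.6 (nhr-88) to 34.7 (nhr-84) in replicate 1 and from 27.1 (nhr-21) to 42.4 (nhr-88) in replicate 2. The nhr-47 summit was shared with the promoter of dnj-19 and fell in an exon of the non-coding gene C24G6.10, and the nhr-142 summit was nearer to the start of F44E7.9.

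By replicate support, 8 of the 22 promoter peaks were in both own lists (36.4%), 1 in replicate 1's list only, 8 in replicate 2's list only (36.4%) and 5 in neither (22.7%). For 856 promoter peaks of all genes the counts were 32.1% in both (275 peaks), 103 peaks in replicate 1 only, 23.2% in replicate 2 only and 32.6% in neither. Signal in replicate 2 exceeded that in replicate 1 at 17 of the 22 peaks, or 77.3%, against 66.7% of all promoter peaks. The median signal of the 22 peaks was 80.9, with quartiles of 68.4 and 93.8, against 77.3 for all promoter peaks, with quartiles of 64.4 and 100.1. The conservative signal was above either replicate's own value at each of the 22.

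Promoter summits lay upstream of the gene start at 19 of the 22 genes, at a median distance of 316 bp, and 14 were within 500 bp upstream. The window itself reaches 1000 bp upstream but only 200 bp downstream. Positions were not counted for all promoter peaks, so these counts describe the receptor genes only. The other 3, at nhr-8, nhr-21 and nhr-131, lay in a 5′ UTR. Of all 22, 17 were intergenic. The receptor gene had the nearest protein-coding start in 20 cases, the exceptions being nhr-68 and nhr-142. Of the 1049 genes of any kind with a promoter summit, 841 kept one when only the nearest start was allowed. Just inside the upstream edge of the window was nhr-88, at 854 bp. Just outside were nhr-34 at 1110 bp (signal 71.5) and nhr-10 at 1340 bp, followed by nhr-247 at 2016 bp, nhr-132 at 2249 bp and nhr-177 at 2257 bp. For nhr-132 and nhr-177 the summit was the promoter peak of the neighbouring members nhr-58 and nhr-178.

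**Figure D2:**
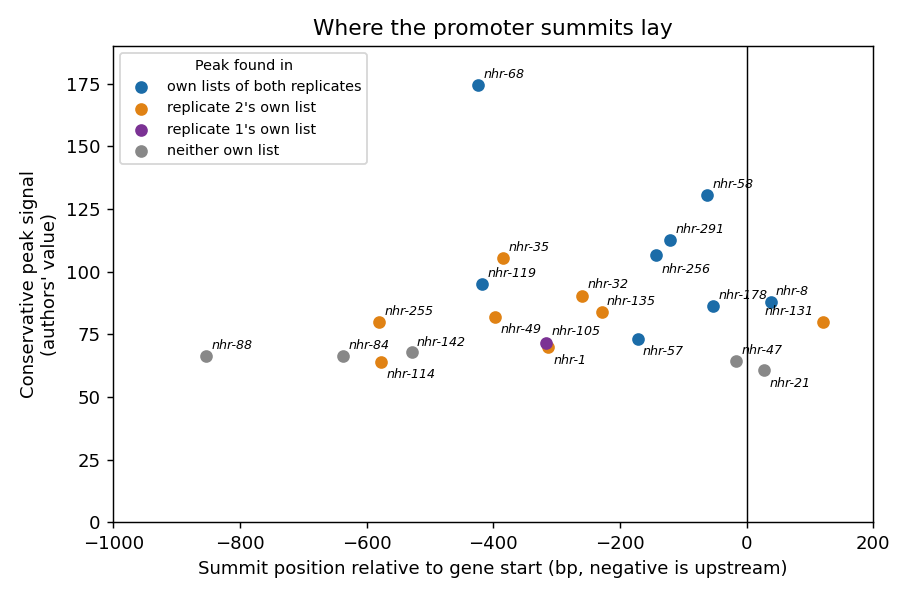
Position of the 22 promoter summits relative to the start of the receptor gene (horizontal axis, bp, negative upstream) against conservative peak signal (vertical axis, authors' value), coloured by support in the replicates' own lists. Blue points, in both own lists, lie between 424 bp upstream (nhr-68) and 38 bp downstream (nhr-8); the farthest point, nhr-88 at 854 bp, was in neither list.

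The receptor genes are spread unevenly over the genome, with 167 of the 269 on chromosome V. Its 12 members with a promoter summit made up 7.19% (exact 95% bounds 3.77 and 12.2%), where 3.94% of the chromosome's 4994 genes had one. On chromosome X 4 of 23 had one (17.4%, interval 4.95 to 38.8%) against 5.97% of all genes there. On chromosome II the count was 3 of 15 (20%, interval 4.33 to 48.1%) against 5.25%. It was 2 of 33 on chromosome IV (6.06%) against 4.85%, 1 of 23 on chromosome I (4.35%) against 5.49%, and 0 of 8 on chromosome III (upper bound 36.9%), against 7.23%. For each of the 6 chromosomes the interval of the receptor genes held the share of all genes there, and outside chromosome V no share rests on more than 33 members. Doubly supported promoter peaks were on chromosomes V, IV and II.

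Receptor genes with a gene body summit numbered 14 in all (5.20%, against 3.38% of all genes), with 6 of 33 on chromosome IV, 4 of 23 on X, 2 of 15 on II, 2 of 167 on V, and none on I or III. On chromosome V the share was 1.20% (interval 0.145 to 4.26%) and on chromosome IV 18.2% (interval 6.98 to 35.5%), where all genes had 2.32% and 3.26%. On chromosome X the members' 17.4% (interval 4.95 to 38.8%) stood beside 4.83% of all genes, and on chromosome II their 13.3% (interval 1.66 to 40.5%) beside 2.84%. Of all genes, 3.23% on chromosome I and 4.92% on chromosome III had a body summit. The intervals on chromosomes V, II, I and III held the share of all genes there. Those on IV and X lay above it, on X by a narrow margin. Gene length was not taken into account in these shares, and no difference was tested.

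**Figure D3:**
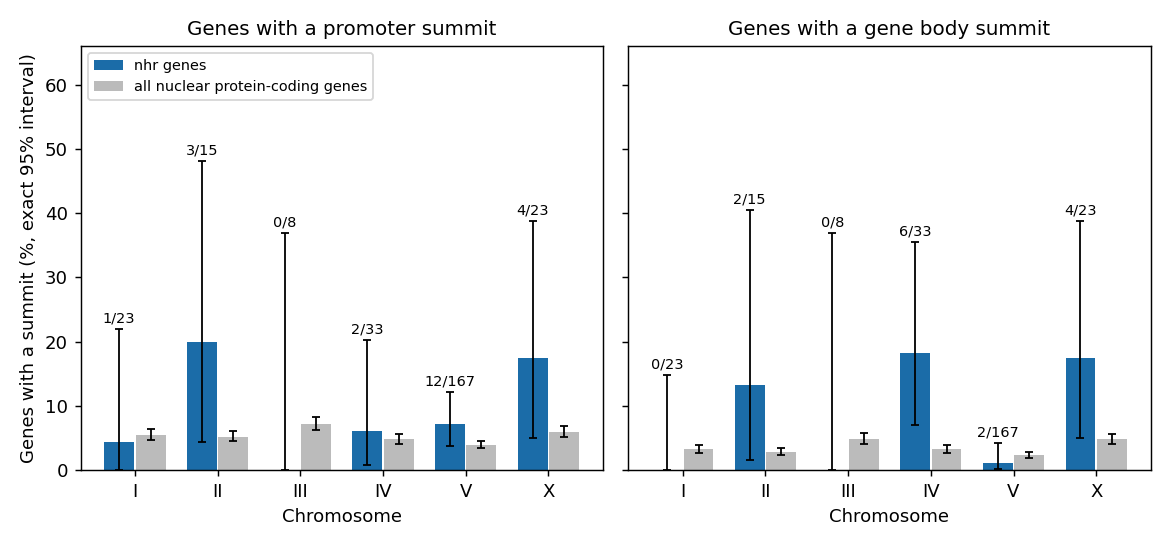
Share of genes with a promoter summit (left) and with a gene body summit (right) on each chromosome, as percent with exact 95% intervals, for receptor genes (blue, with counts above the bars) and all nuclear protein-coding genes (grey). Receptor genes on chromosome V had 12 of 167 promoter but 2 of 167 body summits, and bars for the other chromosomes rest on 33 genes or fewer.

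Many receptor genes of chromosome V stand side by side. Among members whose next protein-coding gene on either side was also a member, promoter summits numbered 5 in 137 genes (3.65%, interval 1.20 to 8.31%). Among members with no such neighbour they numbered 17 in 132 genes (12.9%, interval 7.68 to 19.8%), and the intervals overlap narrowly. Of all nuclear protein-coding genes 5.25% had one, and of those on chromosome V 3.94%. Of the 137 genes, 107 lie on chromosome V, so this split also differs by chromosome. On chromosome V alone the shares with and without a member neighbour were 5 of 107 (4.67%, interval 1.53 to 10.6%) and 7 of 60 (11.7%, interval 4.82 to 22.6%), with overlapping intervals. In the central part of chromosome V, as long as both flanks together, 5 of 56 members had a promoter summit (8.93%), and in the flanks 7 of 111 (6.31%). For all genes of that chromosome the shares were 4.76% and 3.04%. Outside chromosome V, 10 of 102 members had one (9.80%) against 5.69% of genes.

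Gene body summits beyond the promoter window were found in 11 genes, with 16 peaks that did not repeat a stronger neighbour. These 11 genes were 4.09% of members (interval 2.06 to 7.20%), against 3.11% of all genes. The 14 genes counted above include 3 whose body summit also lay in the promoter window. By annotation, 11 of the 16 were intronic, 3 in a non-coding exon and 1 in each kind of UTR. The strongest was at nhr-3 (chromosome X, 14558504 to 14561432), where an intronic summit reached 137.4 at 1875 bp downstream of the start, from replicate values of 66.6 and 75.2. An intronic summit of nhr-46 on chromosome IV, 1760 bp downstream, had 123, with 48.9 and 77.8. Both were in both own lists, and the nhr-3 peak was higher than every receptor promoter peak but that of nhr-68.

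At nhr-19, on chromosome II, 4 summits lay in a gene of 7347 bp, the most of any member. The strongest, in both own lists, had a signal of 78.3 and lay 4190 bp downstream, with 36.8 and 46.9 in the replicates. The others had 76.4 (replicate 2's list only), 63.0 (replicate 1's only) and 54.996 (neither), the last in the 3′ UTR. The nhr-46 gene had a second peak of 70.7 in replicate 1's list only. In nhr-97 an intronic summit of 96.6 was in replicate 2's list, with 31.8 in replicate 1 and 65.6 in replicate 2. In nhr-137 one of 68.7 was likewise in replicate 2's list only.

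Some body summits lay near the start of a shorter transcript or near a small RNA gene. The nhr-66 summit was 6888 bp into the gene but at -137 bp from an internal transcript start, and had 30.4 and 29.3 in the replicates. At nhr-31, which acts in the excretory canal on vacuolar ATPase genes, the summit with a signal of 67.9 was at -466 bp from an internal start and was in neither own list. The nhr-41 summit was within 187 bp of an internal start and inside a tRNA gene. In nhr-17 (chromosome X, 12663837 to 12667854) a peak of 137.0, with 55.6 and 85.6 in the replicates and in both own lists, had its summit inside a tRNA gene that lies within the receptor gene. Both summits of nhr-150, with 69.0 and 63.6, lay within 17 bp of a tRNA gene.

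In all, 4 of the 16 body summits (25%) lay within 200 bp of a tRNA, snoRNA or snRNA gene, against 23.9% of all 662 gene body peaks outside promoter windows. Of the promoter summits 1 of 22 did (4.55%), against 9.11% of all 856 promoter peaks. The part of these small RNA genes in the signal of nhr-17, nhr-41, nhr-150 and nhr-255 was not tested. The longest gene with a body summit, nhr-27, spans 102756 bp and held 1 summit with a signal of 56.1, in neither own list.

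Gene length moved with the body count. None of 93 members under 2 kb had a body summit, 5 of 138 from 2 to 5 kb did (3.62%) and 9 of 38 over 5 kb did (23.7%). All nuclear protein-coding genes had 1.13%, 3.36% and 10.3% in these classes. The median length of a member was 2309 bp and that of all genes 2027 bp.

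**Figure D4:**
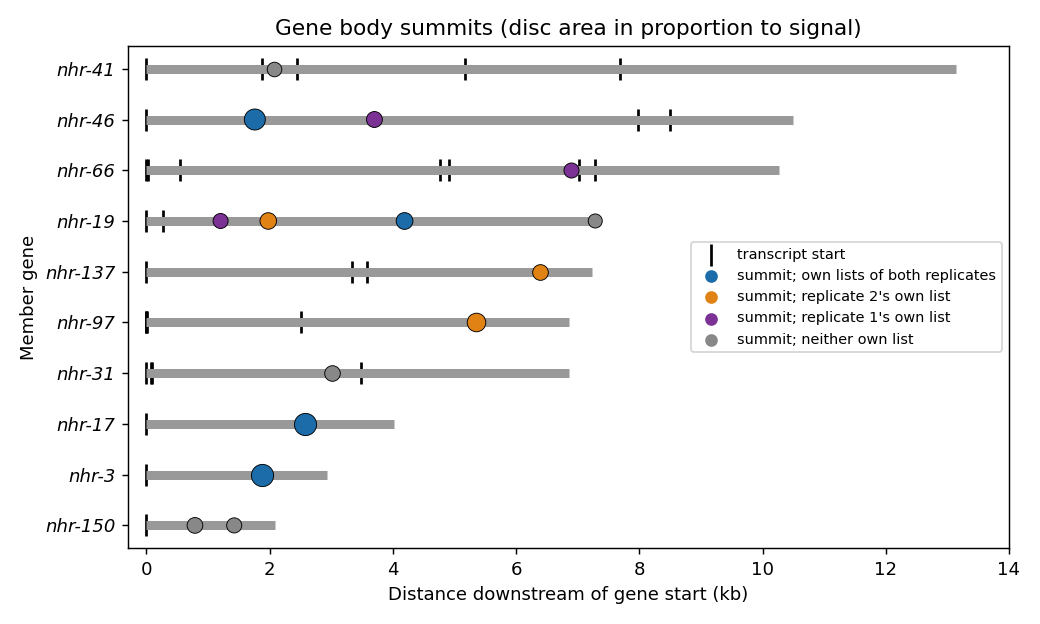
Gene body summits outside the promoter window in 10 receptor genes, drawn as grey bars from the gene start (0) to the gene end in kb, with black ticks at annotated transcript starts. Discs are summits, with area in proportion to conservative signal and colour by support in the replicates' own lists; nhr-27, of 102756 bp, is left out. The largest discs are nhr-3 and nhr-17, both blue, and the nhr-66 disc lies beside an internal transcript start.

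Below the threshold, 105 of the 247 members without a promoter summit (42.5%) had some peak of the ranked conservative list in the promoter window, against 41.6% of all genes without one. The median of their highest signal was 25.4, against 25.3 for all such genes. The highest signals among them were at nhr-203, with 61.8, and nhr-168, with 60.3, where replicate 1 gave 36.3 and replicate 2 gave 22.1. Their −log10 IDR was 1.98 and 1.85. Just inside the threshold were nhr-88 with 2.03 and nhr-21 with 2.11. A gap in signal therefore did not separate these genes, since nhr-203 lay above nhr-21.

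**Figure D5:**
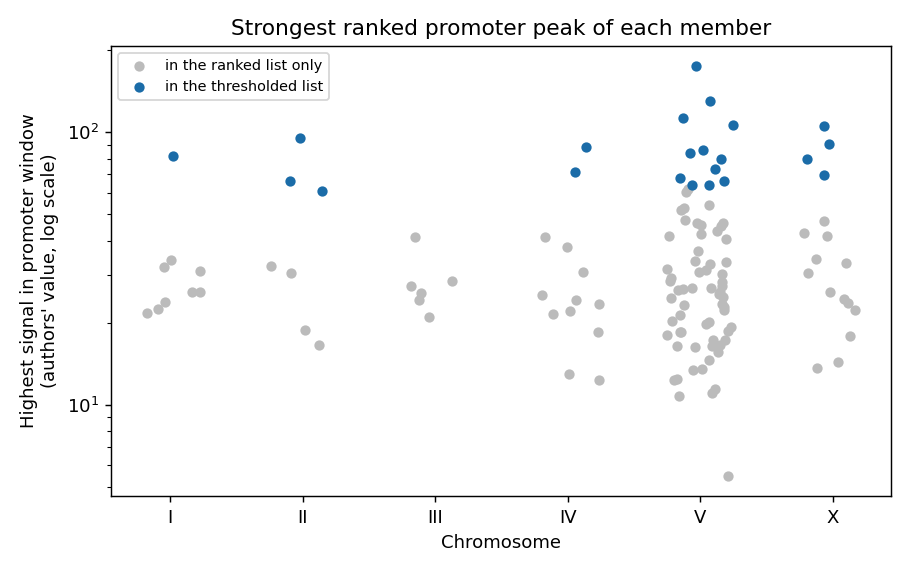
Highest signal of a ranked conservative peak in the promoter window of each member (vertical axis, authors' value, log scale), by chromosome, for the 22 members in the thresholded list (blue) and the 105 in the ranked list only (grey); members with no ranked peak are not drawn, and sideways spread within a chromosome has no meaning. Blue and grey points overlap between 60.6 and 61.8, and chromosome III has grey points only.

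Of the 5 receptor genes with other names, none had a promoter summit, which is near the background of 5.25%. The steroid receptor gene daf-12, which controls dauer formation and larval timing, had 2 gene body summits. The stronger, 1790 bp downstream of the start, had a signal of 111, with 49.9 and 60.4 in the replicates, and was in both own lists. The nearest summits to odr-7, unc-55, fax-1 and sex-1 lay 3.45 kb, 10.2 kb, 46.0 kb and 58.5 kb from their starts.

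Among 7 genes of receptor cofactors, chaperones and ligand synthesis, 2 had a promoter summit, where 5.25% of all genes did. The coactivator gene cbp-1, which encodes a histone acetyltransferase, reached 234, from replicate values of 117 and 105, and both own lists held the peak. The gene of the DAF-12 corepressor, din-1, had 95.05 at 699 bp upstream, with 36.1 and 54.3, in replicate 2's list only. The chaperone gene hsp-90 had a body summit of 129, with 70.0 and 62.8. At mdt-15, whose product is the Mediator subunit that binds NHR-49, the nearest summit lay 1931 bp upstream. No promoter summit was found at 8 genes known to be controlled by these receptors, among them fat-5, fat-7, acs-2 and acdh-1, a count near the background of 5.25%. The desaturase gene fat-6 had a body summit 687 bp downstream with a signal of 58.2.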

How the data were processed

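LIN-1 ChIP-seq peak lists of 2 replicates were used as deposited by the authors, on ce11 per the labels. The authors deposited a score and a signal value for each peak, and a −log10 IDR for each ranked peak. The signal's scale, the peak caller, the aligner and the read depth: not given in the sources used here. Ensembl release 115 (WBcel235) was the annotation, and no peak ran past a chromosome end of the reference. Summits were assigned to genes with pandas 2.3.3, intervals are exact binomial (scipy 1.17.1), and windows were read with pysam 0.24.0. Assignment was tested on made-up genes with known answers. Own-list support means an overlap of 1 bp or more. In the conservative list 132 peaks repeat the pair of replicate signals of a stronger peak and stayed in the main counts of genes. Members and function lists were chosen with earlier results of these data known. Named genes are every member with a promoter summit, body summits in both own lists or among the 10 strongest, the function lists, and members just outside the window; others were named after their values were seen. Alternatives were other lists, thresholds, windows, gene starts and words. No set test was run.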

Additional observations from a re-analysis of the deposited data

How the results depend on the processing

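Promoter, body and either counts were 22, 14 and 33 in the conservative list. With the series list they were 23, 17 and 37, with 9 function-list members. The gene counts were 8.55%, 6.32% and 13.8% of members, against 5.51%, 3.52% and 8.30% of all genes. With a single replicate's own list, leaving out the other replicate, the promoter count ran from 9 to 16, the body count from 6 to 9, the count with either from 14 to 23, the number of chromosomes with a promoter summit from 3 to 5, and the count of function-list members from 4 to 6. These lists were thresholded separately and are shorter, and replicate 1's list gave the lowest values. Promoter shares were 3.35% of members against 2.65% of all genes with replicate 1's list, and 5.95% against 3.43% with replicate 2's. At an IDR of 0.001 the counts fell to 12, 6 and 17, with 2 function-list members. With peaks in both own lists they fell to 8, 5 and 12, on 3 chromosomes, with 3 function-list members. In each of these settings fewer peaks entered, 1177 and 701 in place of 2267, and the share of all genes also fell, to 2.95% and 1.79% for promoters. Other settings kept the promoter count between 16 and 25. It was 25 when any annotated transcript start was allowed, with nhr-31, nhr-41 and nhr-66 added (9.29% of members against 5.94% of all genes). In that setting 7 function-list members had a promoter summit, in place of 5. With a window of 500 bp upstream to 100 bp downstream, members had 5.95% and all genes 3.84%. With 2000 bp upstream to 500 bp downstream the count was 24, and the shares were closer, 8.92% against 7.72%. The word CCGGAA was at 2.63% of member summits within 50 bp, at 0% within 25 bp and at 13.2% within 100 bp. All nuclear summits had 3.36%, 1.56% and 6.91%, so that the order against all summits turned at 100 bp. Within 50 bp, member summits had CGGAAG at 0%, GGAA at 57.9% and TGATAA at 23.7%. For these words all nuclear summits had 4.02%, 58.1% and 23.6%. In every one of 12 alternatives 6 members kept a promoter summit: nhr-8, nhr-58, nhr-119, nhr-178, nhr-256 and nhr-291. In all 9 alternatives for gene bodies nhr-3, nhr-19 and nhr-46 kept one. With no read counts in the files, how depth limits detection is unknown. No paired analysis was possible because the series has 1 group.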

Other observations

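The word GCGTCTC occurred somewhere in the promoter window of 44 of the 269 receptor genes, or 16.4%, against 11.2% of all nuclear protein-coding genes. A promoter summit was present at 7 of these 44 genes (15.9%) and at 15 of the 225 without the word (6.67%). For all genes the shares were 10.3% of 2242 with the word and 4.61% of 17731 without it. For CCGGAA the order was the other way, with a summit at 5 of 95 receptor genes that hold it (5.26%) and at 17 of 174 without (9.77%). Over all genes these shares were 5.04% with CCGGAA and 5.36% without. GCGTCTC was picked after reading the windows of receptor summits, so these shares are a description and were not tested.

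By strand, 17 of the 22 receptor genes with a promoter summit were on the plus strand, where 144 of all 269 lie. This was noticed after the values were seen and was not tested.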
